A study of Mus musculus with 10 samples.

Results

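Complement is a blood and tissue defence system whose factors are mostly made by the liver, and fibroblasts are known to make several of them locally. The genes described here are 9 complement genes chosen by name, of 22594 genes with a value: C1ra, C1s1, Serping1, C4b, C2, C3, Cfb, Cfi and C5ar1. The C1q chains were left out of this set. The RNA-seq data cover 10 libraries, labelled as mouse fibroblasts obtained post-mortem, with 2 lung libraries at 12 h, 2 lung libraries at 0 h, 3 ear libraries at 12 h and 3 ear libraries at 0 h. Libraries of a group are called here by the replicate number in the labels. Strain, genotype, age, any cell culture and whether replicates are separate animals are not stated in the labels, so p-values measure the spread between these libraries, part of which may be technical. Levels are in TPM, which scale each transcript by its length and each library to the same total, and were summed over all transcripts of a gene. The sequencing depth behind them is unknown.

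In the classical pathway, antibody or other ligands bound by C1q activate the proteases C1r and C1s, which cleave C4 and C2 to form an enzyme that splits C3. In the alternative pathway, factor B joins C3b to form a further C3-cleaving enzyme, which amplifies the reaction. C1 inhibitor blocks C1r and C1s, factor I inactivates C3b and C4b, and the C5a receptor on myeloid cells senses the fragment released from C5.

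Lung libraries held less C4b, C3, C1s1, C1ra and Cfb transcript than ear libraries, and more of the receptor transcript C5ar1. Averaged over both times, these 5 were lower in lung, C5ar1 was higher in lung, and Serping1 and C2 did not pass the test. Cfi was below 0.2 TPM in every library and was not tested. The test was limma's moderated test on log2(TPM + 1), with a Benjamini-Hochberg adjusted p under 0.05 over all 13188 genes that reached 1 TPM in at least 2 libraries. Of the 8 genes tested, 5 were thus lower and 1 higher in lung, where 28.2% of all genes tested passed, 15.9% lower and 12.3% higher. For 5 of the 8 every lung library lay below every ear library, as for 15.2% of all genes tested, and for 1 every lung library lay above, as for 10.7%. The median difference of the 8 was -2.68 on the log2 scale, against -0.11 over all genes tested. C5ar1 passed the filter only through lung, and C2 only through ear. The mean of both times takes all 10 libraries as independent, although ear libraries with the same number were alike across times.

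Markers bear on what these libraries hold. All 12 fibroblast markers passed the filter, and their summed TPM was 4507 to 5261 in lung at 12 h and 3556 to 6995 in lung at 0 h, against 7495 to 14760 in ear at 12 h and 5729 to 9276 in ear at 0 h. Of these 12, 6 were lower in lung and 0 higher, averaged over both times, against 15.9% and 12.3% of all genes tested. Among the 6 was Pdgfra, a growth factor receptor gene of fibroblasts (log2 difference -1.65, SE 0.509, limma adjusted p = 0.0377). The 12 macrophage and myeloid markers summed to 7511 to 17440 TPM in lung at 12 h and at 5461 to 7240 TPM in lung at 0 h, against 29.7 to 57.4 TPM in ear at 12 h and 26.4 to 49.1 TPM in ear at 0 h, and all 12 were higher in lung, against 12.3% of all genes tested. Adgre1, Ptprc, Mrc1 and Aif1 were under 1 TPM in every ear library, and Csf1r and Laptm5 reached it in 1, so these 6 passed the filter only through lung. Sums in lung and ear libraries were 6.09 to 36.5 and 0.747 to 3.70 TPM for 6 epithelial markers. They were 36.5 to 57.9 and 1.63 to 10.3 TPM for 6 neutrophil markers, nearly all of it S100a8 in lung. For 4 endothelial markers they were 2.18 to 3.85 and 2.00 to 14.8 TPM, and for 4 adipocyte markers 23.5 to 184 and 94.7 to 805 TPM. In lung the adipocyte sum was nearly all Lpl (23.0 to 183 TPM), with Plin1 at no more than 0.312 TPM. The 4 hepatocyte markers, including Alb, summed to at most 0.448 TPM in lung and 0.732 TPM in ear, so transcripts of the liver's complement-making cells were at or near 0. In such mixtures, fewer cells of a type and less RNA per cell cannot be told apart.

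**Figure D1:**
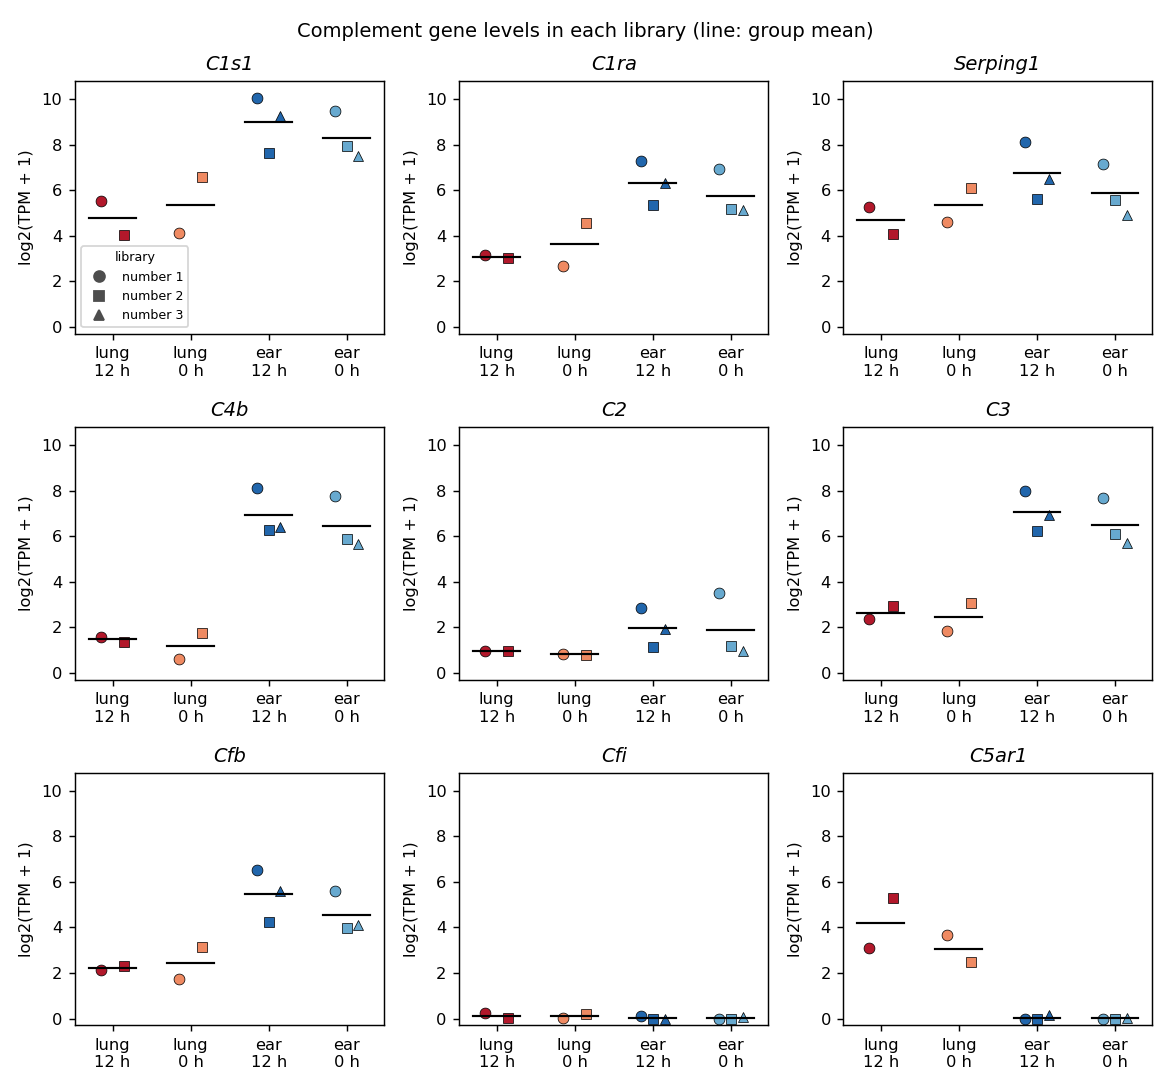
Level of each of the 9 genes in each library, as log2(TPM + 1), by group. Symbols give the library number and lines the group mean. Every lung library lies below every ear library for C1s1, C1ra, C4b, C3 and Cfb and above every ear library for C5ar1, while the groups overlap for Serping1 and C2.

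C1s1 and C1ra encode the proteases C1s and C1r, which start the classical pathway. C1s1 was the most abundant of the 9 in all 6 ear libraries, ranking between 155 and 788 among all genes there and between 1524 and 6426 in lung. C1s1 was at 45.6 and 15.5 TPM in lung at 12 h and at 16.6 and 95.2 TPM in lung at 0 h, against 1047, 200.5 and 621 TPM in ear at 12 h and 720.1, 245.5 and 181 TPM in ear at 0 h. The highest lung library, number 2 at 0 h, reached 95.2 TPM, and the lowest ear library, number 3 at 0 h, reached 181 TPM, so the tissues did not overlap. Averaged over both times the log2 difference was -3.58 (SE 0.653, adjusted p = 0.0034). C1ra was at 7.98 and 7.08 TPM in lung at 12 h and at 5.34 and 23.0 TPM in lung at 0 h, against 156, 40.1 and 79.1 TPM in ear at 12 h and 121, 35.1 and 34.6 TPM in ear at 0 h. Again no lung library reached the lowest ear library, and the log2 difference was -2.68 (SE 0.521, adjusted p = 0.0048).

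At 12 h both proteases were lower in lung in limma's test, with -4.20 for C1s1 (SE 0.923, adjusted p = 0.0139) and -3.24 for C1ra (SE 0.736, adjusted p = 0.0161). At 0 h neither passed, with -2.95 for C1s1 (95% interval -5.03 to -0.87, adjusted p = 0.0746) and -2.13 for C1ra (-3.79 to -0.47, adjusted p = 0.104). Lung at 0 h was split between its 2 libraries: without number 1 the C1s1 value was -1.73, and without number 2 it was -4.18 and passed (limma adjusted p = 0.0499). The 12 h call of C1s1 was lost without lung 12 h number 2 (-3.45, limma adjusted p = 0.106), and that of C1ra without either lung 12 h library (-3.31 without number 1 and -3.16 without number 2).

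C1ra and C1s1 are neighbours on chromosome 6 of GRCm38. C1ra (ENSMUSG00000055172.10) lies on the plus strand at chr6:124512405-124523443, and C1s1 (ENSMUSG00000038521.17) on the minus strand at chr6:124530345-124542359, with 6901 bases between their 3′ ends. Each has a close paralog further along the same chromosome. Of the 31-base words in the transcripts of C1s1 and C1ra, 35.0% and 56.9% also occur in C1s2 and C1rb, so the division of reads within each pair is uncertain. C1s2 was at 0.223 to 1.62 TPM in lung and 2.63 to 16.5 TPM in ear, and C1rb at 0.0625 to 0.450 TPM in lung and 0.636 to 3.78 TPM in ear. With each pair summed, the C1s1 difference was -3.57 and the C1ra difference -2.70, and both calls were kept. The most used C1s1 transcript, C1s1-205, took 84.9% to 85.1% of C1s1 TPM in lung and 86.7% to 91.7% in ear.

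Serping1 encodes C1 inhibitor, the serpin that blocks C1r and C1s. It was at 37.8 and 15.9 TPM in lung at 12 h and at 23.5 and 67.8 TPM in lung at 0 h, against 275, 48.4 and 89.1 TPM in ear at 12 h and 142, 47.0 and 29.4 TPM in ear at 0 h. Lung 0 h number 2 stood above 3 of the 6 ear libraries, so the tissues overlapped. The log2 difference averaged over both times was -1.30 with a 95% interval from -2.64 to 0.04 (limma adjusted p = 0.135). At 12 h it was -2.07 (limma adjusted p = 0.127) and at 0 h -0.53 (limma adjusted p = 0.772), which turned to 0.10 without ear number 1 at both times. Serping1 (ENSMUSG00000023224.12) lies on the minus strand at chr2:84765387-84775444, and none of its 31-base words occurs in another gene of the deposited table.

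The proteases and their inhibitor stood in different proportion in lung and ear libraries. C1s1 and Serping1 were at similar levels in lung, with C1s1 to Serping1 ratios of 1.21 and 0.976 at 12 h and 0.708 and 1.40 at 0 h. In ear the ratios were 3.81, 4.14 and 6.97 at 12 h and 5.06, 5.22 and 6.18 at 0 h. The ranges did not overlap, and the same held for C1ra to Serping1, at 0.211 to 0.446 in lung and 0.567 to 1.18 in ear. C1s1 to C1ra ratios overlapped, at 2.19 to 5.71 in lung and 5.005 to 7.85 in ear. These ratios were chosen after the values were seen and are given without a test.

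Levels were also set against Pdgfra, the fibroblast marker, in the same library. Per Pdgfra transcript, Serping1 was at 0.407 and 0.446 in lung at 12 h and 0.332 and 0.275 in lung at 0 h, against 0.403, 0.291 and 0.352 in ear at 12 h and 0.337, 0.250 and 0.149 in ear at 0 h, so the tissues overlapped. Pdgfra is 1 of the 12 fibroblast markers and was chosen after values were seen. The C1s1 to Pdgfra ratio was 0.235 to 0.491 in lung and 0.921 to 2.45 in ear, without overlap. C4b and C3 per Pdgfra were likewise apart, at 0.0075 to 0.0437 and 0.0301 to 0.187 in lung and at 0.253 to 0.508 and 0.259 to 0.482 in ear. Cfb and C1ra per Pdgfra overlapped through lung 12 h number 2, which held the least Pdgfra, 35.5 TPM, and the most macrophage transcript. Against each of the 12 markers in turn, every lung library was below every ear library for 8 of 12 for C1s1, 10 for C4b, 9 for C3, 5 for Cfb, 4 for C1ra and 0 for Serping1. C1s1 overlapped per Lum, Thy1, Dpt and Fbln1, and every lung library was above every ear library for 2 of 12 for Serping1, 1 for Cfb and 1 for C1ra. The part of cell composition in the differences between lung and ear was not tested.

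**Figure D2:**
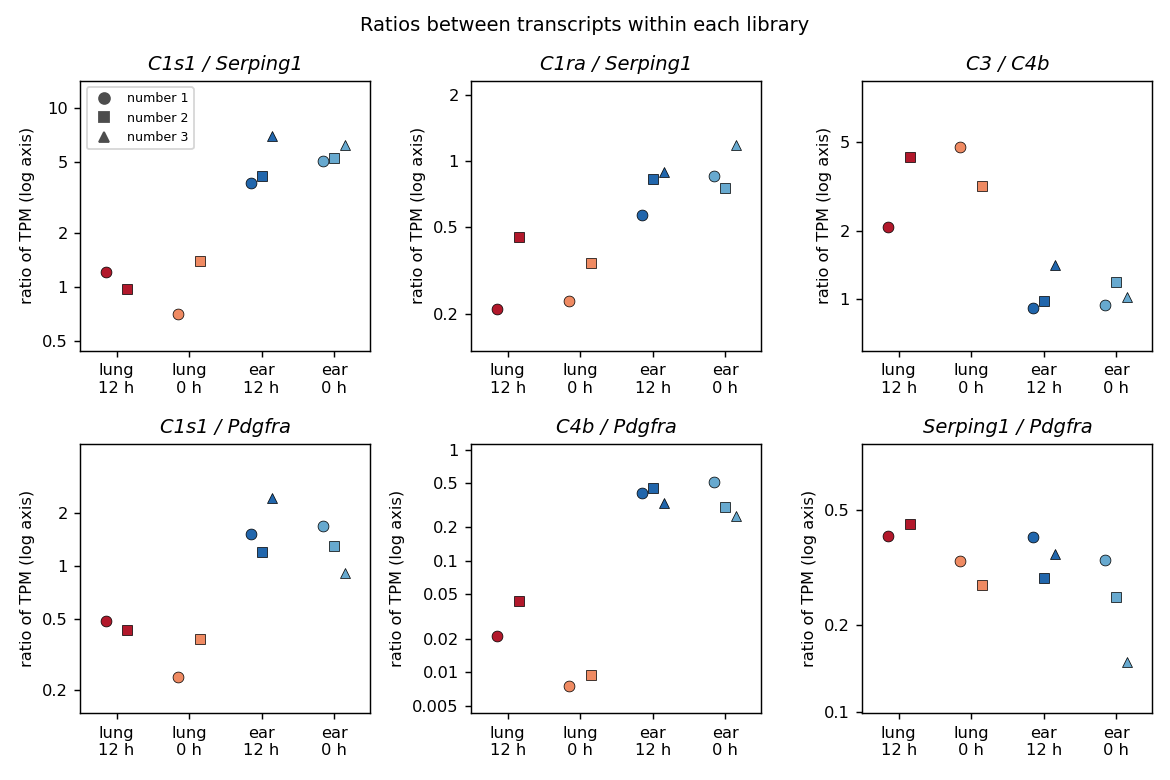
Ratios of TPM between pairs of transcripts within each library, on log axes, by group, with symbols for the library number. C1s1 to Serping1 and C1ra to Serping1 are lower in every lung library than in any ear library, C3 to C4b is higher, C1s1 and C4b per Pdgfra are lower, and Serping1 per Pdgfra overlaps between the tissues.

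C4b and C2 encode the substrates that C1s cleaves, and their products together form the classical C3 convertase. C4b had the largest difference among the 8 on the log2(TPM + 1) scale. With a pseudocount of 0.1 it came after C5ar1, at -6.07 against 6.61. It was at 1.98 and 1.55 TPM in lung at 12 h and at 0.530 and 2.34 TPM in lung at 0 h, against 278.5, 75.8 and 83.8 TPM in ear at 12 h and 215, 57.2 and 49.8 TPM in ear at 0 h. The highest lung library reached 2.34 TPM and the lowest ear library 49.8 TPM. The log2 difference was -5.36 averaged over both times (SE 0.506, adjusted p = 8.32e-05), -5.47 at 12 h (SE 0.715, adjusted p = 0.0011) and -5.25 at 0 h (SE 0.715, adjusted p = 0.0018).

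C4b (ENSMUSG00000073418.4) lies in the class III region of the major histocompatibility complex, on the minus strand at chr17:34728380-34743882. Its paralog C4a was not analysed here. Since 48.3% of the 31-base words in C4b transcripts also occur in C4a and no C4a transcript has a value, reads of C4a may be held in the C4b value. The annotated nonsense-mediated decay transcript C4b-202 took 0% to 69.7% of C4b TPM in lung, highest in 12 h number 2, and 20.2% to 38.7% in ear. With C4b-201 alone, C4b averaged 1.19 TPM in lung at 12 h and at 1.43 TPM in lung at 0 h, against 108 TPM in ear at 12 h and 76.4 TPM in ear at 0 h.

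C2 was the least abundant of the pathway components that could be tested. It was at 0.928 and 0.950 TPM in lung at 12 h and at 0.789 and 0.726 TPM in lung at 0 h, against 6.08, 1.16 and 2.78 TPM in ear at 12 h and 10.4, 1.29 and 0.943 TPM in ear at 0 h. Ear 0 h number 3 was at the level of lung, and the higher ear mean came largely from the number 1 libraries. The log2 difference was -1.04 with a 95% interval from -2.19 to 0.12 (limma adjusted p = 0.163), and -0.41 without ear number 1 at both times. C2 (ENSMUSG00000024371.14, chr17:34862604-34898265) and Cfb (ENSMUSG00000090231.10, chr17:34856374-34862518) lie head to tail on the minus strand with 85 bases between them. A readthrough gene, Gm20547, spans both and holds 53.2% and 75.5% of the 31-base words of C2 and Cfb. It was listed at 0 in 8 of 10 libraries and at no more than 0.0530 TPM in the other two.

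C3 encodes the central component on which the pathways converge. It was at 4.12 and 6.65 TPM in lung at 12 h and at 2.52 and 7.42 TPM in lung at 0 h, against 255.5, 74.3 and 120 TPM in ear at 12 h and 204, 68.1 and 51.0 TPM in ear at 0 h. All lung libraries were far below all ear libraries, and C3 ranked between 8628 and 10802 among all genes in lung and between 574 and 2517 in ear. The log2 difference was -4.23 averaged over both times (SE 0.471, adjusted p = 2.22e-04), -4.41 at 12 h (SE 0.666, adjusted p = 0.0023) and -4.05 at 0 h (SE 0.666, adjusted p = 0.0048). The 0 h call was lost without lung 0 h number 1, at -3.42 (limma adjusted p = 0.0618). C3 (ENSMUSG00000024164.15) lies on the minus strand at chr17:57203970-57228136.

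Summed over all transcripts, C3 and C4b were at similar levels in ear. The C3 to C4b ratios were 0.918, 0.981 and 1.43 at 12 h and 0.948, 1.19 and 1.02 at 0 h. In lung C3 exceeded C4b in each library, with ratios of 2.08 and 4.28 at 12 h and 4.76 and 3.17 at 0 h. The lung values rest on C4b levels of 0.530 to 2.34 TPM. The C4b sum includes C4b-202, the transcript annotated for nonsense-mediated decay. Transcript C3-201 alone exceeded C4b-201 alone in each ear library, averaging 128 against 92.1 TPM there.

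Promoter sequence was looked up for genes that differed between the tissues. Entries for 4 of the 9 genes, C3, C1s1, C1ra and C5ar1, were found in RefSeq's promoter table on GRCm38.p6. The 250 bases before each start listed there were searched on both strands. The motifs were the core of interferon-stimulated response elements, TTCNNNGAA (gamma-activated sites bound by STAT factors), the NF-kB core and, added after the sequences were seen, TTGCGNAA (a C/EBP core). These factors are known to regulate complement and acute-phase genes. Of 32851 promoters searched, 2.98%, 7.02%, 1.21% and 0.670% held the motifs in that order. C3, with the C/EBP core in capitals, and C1s1, which held no match, are shown 5′ to 3′ as the most different and the most abundant of the genes lower in lung that have an entry.
C3, chr17:57228137-57228386, minus strand: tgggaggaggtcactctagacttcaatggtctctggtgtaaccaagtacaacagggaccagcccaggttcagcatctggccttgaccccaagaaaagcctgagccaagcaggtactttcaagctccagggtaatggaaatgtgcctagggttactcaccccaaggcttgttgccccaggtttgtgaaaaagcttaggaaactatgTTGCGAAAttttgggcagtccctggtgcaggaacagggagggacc
C1s1, chr6:124542360-124542609, minus strand: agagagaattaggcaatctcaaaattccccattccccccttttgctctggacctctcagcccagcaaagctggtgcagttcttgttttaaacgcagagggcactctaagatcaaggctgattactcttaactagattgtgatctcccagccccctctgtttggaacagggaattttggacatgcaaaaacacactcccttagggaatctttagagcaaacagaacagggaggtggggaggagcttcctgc

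The C3 match, TTGCGAAA, begins 45 bases before the start. The entries of C1ra and C5ar1 also held no match. Their searched bases, chr6:124512371-124512620 and chr7:16259339-16259588, lie mostly inside the gene spans given here. The missing matches thus say little about the bases upstream of those spans. A match of letters is a description and not a site shown to be bound.

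Cfb encodes factor B, the protease of the alternative pathway. It was at 3.38 and 3.91 TPM in lung at 12 h and at 2.33 and 7.95 TPM in lung at 0 h, against 90.6, 17.9 and 47.8 TPM in ear at 12 h and 47.0, 14.7 and 16.4 TPM in ear at 0 h. The tissues did not overlap. The log2 difference averaged over both times was -2.68 (SE 0.497, adjusted p = 0.0038), and at 12 h it was -3.24 (SE 0.704, adjusted p = 0.0131). The 0 h value of -2.11 did not pass (95% interval -3.70 to -0.53, limma adjusted p = 0.0927), and the 12 h call was lost without lung 12 h number 1 (-3.16) or number 2 (-3.32). C3 to Cfb ratios were 0.934 to 1.70 in lung and 2.50 to 4.64 in ear. Cfb-201 took 40.4% to 70.3% of Cfb TPM in lung and 80.8% to 94.7% in ear, and the remaining lung TPM sat on minor transcripts at or below 1.19 TPM each.

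Cfi encodes factor I, the protease that inactivates C3b and C4b. It was at 0.172 and 0.0232 TPM in lung at 12 h and at 0.0176 and 0.160 TPM in lung at 0 h, against 0.0782 TPM in ear 12 h number 1 and 0.0568 TPM in ear 0 h number 3. The other ear libraries, 4 of 6, were listed at 0. The depth behind these values is unknown, so no detection limit can be given.

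C5ar1 encodes the receptor for C5a, a gene of myeloid cells, and was the only 1 of the 8 tested that was higher in lung. It was at 7.48 and 38.8 TPM in lung at 12 h and at 11.8 and 4.54 TPM in lung at 0 h, against 0.102 TPM in ear 12 h number 3 and 0.0174 TPM in ear 0 h number 3. The remaining 4 ear libraries were listed at 0. The difference in log2(TPM + 1) was 3.61 averaged over both times (SE 0.401, adjusted p = 2.18e-04), 4.15 at 12 h (SE 0.567, adjusted p = 0.0014) and 3.07 at 0 h (SE 0.567, adjusted p = 0.0084). With a pseudocount of 0.1 the averaged difference was 6.61, since the ear values are at or near 0, and the 0 h call was lost without lung 0 h number 1 (2.46, limma adjusted p = 0.0983). C5ar1 (ENSMUSG00000049130.6) lies on the minus strand at chr7:16246743-16259540.

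Across lung libraries, C5ar1 and all 12 myeloid markers were highest in 12 h number 2, while the library lowest in a marker varied. Lung 12 h number 2 held the most C5ar1, the most Csf1r, which encodes a macrophage growth factor receptor (111 TPM), and the most Ptprc, the common leukocyte antigen gene (42.2 TPM), while lung 0 h number 2 held the least of each, 4.54, 4.92 and 8.80 TPM. C5ar1 to Csf1r ratios were 0.734 and 0.350 in lung at 12 h and 0.641 and 0.923 in lung at 0 h. C5ar1 to Ptprc ratios were 0.646 and 0.921 in lung at 12 h and 0.960 and 0.516 in lung at 0 h. In ear, Ptprc was at 0.0254 to 0.166 TPM. The part of macrophage content in the C5ar1 difference was not tested.

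**Figure D3:**
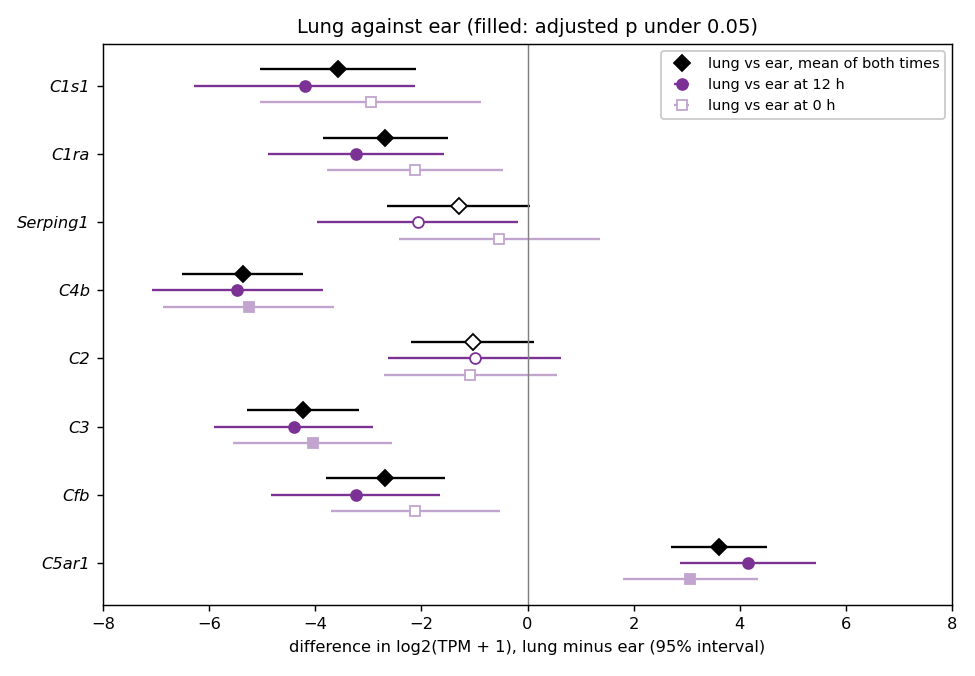
Difference in log2(TPM + 1), lung minus ear, with its 95% interval from limma, for the 8 genes tested, averaged over both times, at 12 h and at 0 h. Filled symbols passed an adjusted p of 0.05. C4b, C3 and C5ar1 passed at both times, C1s1, C1ra and Cfb at 12 h and averaged over both times, and Serping1 and C2 in none.

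At single times, 6 of the 8 genes tested passed at 12 h, 5 of them lower and 1 higher in lung, where 17.2% of all genes tested passed, 9.12% lower and 8.07% higher. At 0 h 3 passed, 2 lower and 1 higher in lung, where 11.3% of all genes passed, 5.17% lower and 6.11% higher. Whether the tissue difference changed between the times was tested by the interaction of tissue and time. No member passed it: its values lay between -1.54 for Serping1 (95% interval -4.22 to 1.15) and 1.08 for C5ar1 (-0.72 to 2.89), and each adjusted p was 0.99988, where 0.00% of all genes passed and 387 of 13188 had an unadjusted p under 0.05.

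Time made no difference that passed the test in either tissue. In ear, 12 h against 0 h, the log2 differences of the 8 genes lay between 0.04 for C5ar1 and 0.90 for Cfb, all above 0, and 0 passed (background 0.00%; 0 of the 8 and 219 of all genes at an unadjusted p under 0.05). The intervals were wide, from -0.52 to 2.31 for Cfb and from -0.79 to 1.90 for C3. In lung, 12 h against 0 h, differences lay between -0.68 for Serping1 and 1.12 for C5ar1, and 0 passed, where 0.00758% of genes did (0 of the 8 and 526 of all genes at an unadjusted p under 0.05). The C5ar1 value of 1.12 had an interval from -0.28 to 2.52. A missing call does not show that the times were alike. In each tissue the Y-linked gene Ddx3y exceeded 1 TPM in 0 h number 2 alone, so sex may be unbalanced between the times.

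Within ear, the libraries differed by number. Number 1 was highest at both times for C1s1, C1ra, Serping1, C4b, C2, C3 and Cfb. The number 1 libraries at 12 h and 0 h also held the most Pdgfra (682 and 422.5 TPM, against 166.5 to 253 TPM in the other ear libraries) and the most Lum, a fibroblast proteoglycan gene (264 and 144 TPM, against 27.2 to 82.1 TPM). They held the most Lpl as well, the lipoprotein lipase gene, listed here with the adipocyte markers (389 and 544 TPM, against 86.4 to 192 TPM). Of the 12 fibroblast markers, 6 were highest in number 1 at both times, and 4, Col1a1, Pdgfrb, Thy1 and Vim, in number 2 at both times. Of the 4 adipocyte markers, only Lpl was highest in number 1 at both times. Plin1, a lipid droplet gene of adipocytes, was at 6.38 TPM in number 1 at 12 h and 220 TPM in number 1 at 0 h, and C2 was the only 1 of the 7 that was lower in number 1 at 12 h than at 0 h. The part of these markers in the spread was not tested. Without both number 1 libraries, C4b, C3, C1s1, C1ra and Cfb were still lower in lung, with log2 differences of -4.73, -3.69, -3.02, -2.14 and -2.15 (limma adjusted p = 7.34e-05, 4.50e-04, 0.0148, 0.0114 and 0.0086), an alternative chosen after seeing the data.

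By number, the 12 h to 0 h ratios in ear were uneven. Number 3 held more of each of the 7 genes at 12 h, with ratios of 3.42 for C1s1, 3.03 for Serping1, 2.94 for C2, 2.92 for Cfb, 2.35 for C3, 2.29 for C1ra and 1.68 for C4b. Number 2 lay between 0.817 for C1s1 and 1.32 for C4b, and number 1 between 0.583 for C2 and 1.93 for Serping1. The number 2 libraries differed in the Y-linked gene Ddx3y, at 0.0168 TPM at 12 h and 52.5 TPM at 0 h. Their ratios may thus compare different animals. With the number taken as a block, 0 of the 8 genes passed either.

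As to the order of levels, C1s1 averaged 503 ± 352 TPM in ear (mean ± SD, n = 6 over both times), above C3 at 129 ± 83.0, C4b at 127 ± 95.9, Serping1 at 105 ± 92.6, C1ra at 77.6 ± 51.2, Cfb at 39.1 ± 29.5 and C2 at 3.78 ± 3.78 TPM. With all transcripts summed, C1s1 exceeded C3 in 6 of 6 libraries, while C3 exceeded C4b in only 3 of 6. Ranges overlapped between all neighbours down to Cfb. In lung (n = 4), C1s1 at 43.2 ± 37.4 and Serping1 at 36.2 ± 23.0 TPM could not be ordered, being higher in 2 libraries each. C5ar1 at 15.7 ± 15.7 and C1ra at 10.9 ± 8.19 TPM came next and could not be ordered either, with 2 libraries each. They were followed by C3 at 5.18 ± 2.26, Cfb at 4.39 ± 2.46, C4b at 1.60 ± 0.782 and C2 at 0.848 ± 0.108 TPM.

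The other complement genes give the setting. Of 46 listed, 45 had a value and 24 passed the filter. Averaged over both times, 9 of these were higher and 5 lower in lung (12.3% and 15.9% of all genes tested), with a median of -0.05. Those higher included the C1q chain genes C1qa, C1qb and C1qc (4.64, 3.04 and 4.75), the properdin gene Cfp, whose product stabilises the alternative convertase (3.83), the ficolin gene Fcna (1.18), the C3a receptor gene C3ar1 (4.75) and the genes of the leukocyte integrin chains of complement receptors, Itgam, Itgax and Itgb2 (4.48, 4.23 and 5.996). Of these 9, C1qa, C1qb, C1qc, C3ar1, Itgam and Itgax were under 1 TPM in every ear library and Fcna reached it in 1, so these passed the filter only through lung. Of those lower, C1rb was under 1 TPM in every lung library and C1s2 reached it in 1, so both passed only through ear. Those lower were the paralogs C1s2 and C1rb (-2.04 and -1.23), the C1r-like gene C1rl (-1.22) and the lectin pathway protease genes Masp1 and Masp2 (-0.93 and -0.66).

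C1qa was at 34.0 and 117 TPM in lung at 12 h and at 9.38 and 10.1 TPM in lung at 0 h, and at no more than 0.111 TPM in any ear library. The C1q genes were thus higher in lung, and C1ra and C1s1 lower. Regulators on the cell surface and in fluid gave no calls, and are named here after their values were seen. None of the 6 tested passed in limma's test, with 1 of 6 at an unadjusted p under 0.05. Among them, Cd55, Cd59a, Cd59b, Cr1l and Clu had values between -0.25 for Cr1l and 0.14 for Clu. Cr1l, which encodes the rodent membrane regulator Crry, was at 42.1 and 43.4 TPM in lung at 12 h and 34.5 and 41.3 TPM in lung at 0 h, against 47.2 to 50.9 TPM in ear at 12 h and 45.3 to 48.5 TPM in ear at 0 h.

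Of the terminal pathway, whose proteins form the membrane attack complex, only C8g passed the filter (-0.39, limma adjusted p = 0.2). Hc, the mouse gene of C5, and C6, C7, C8a, C8b and C9 were at or below 0.427 TPM in every library.

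**Figure D4:**
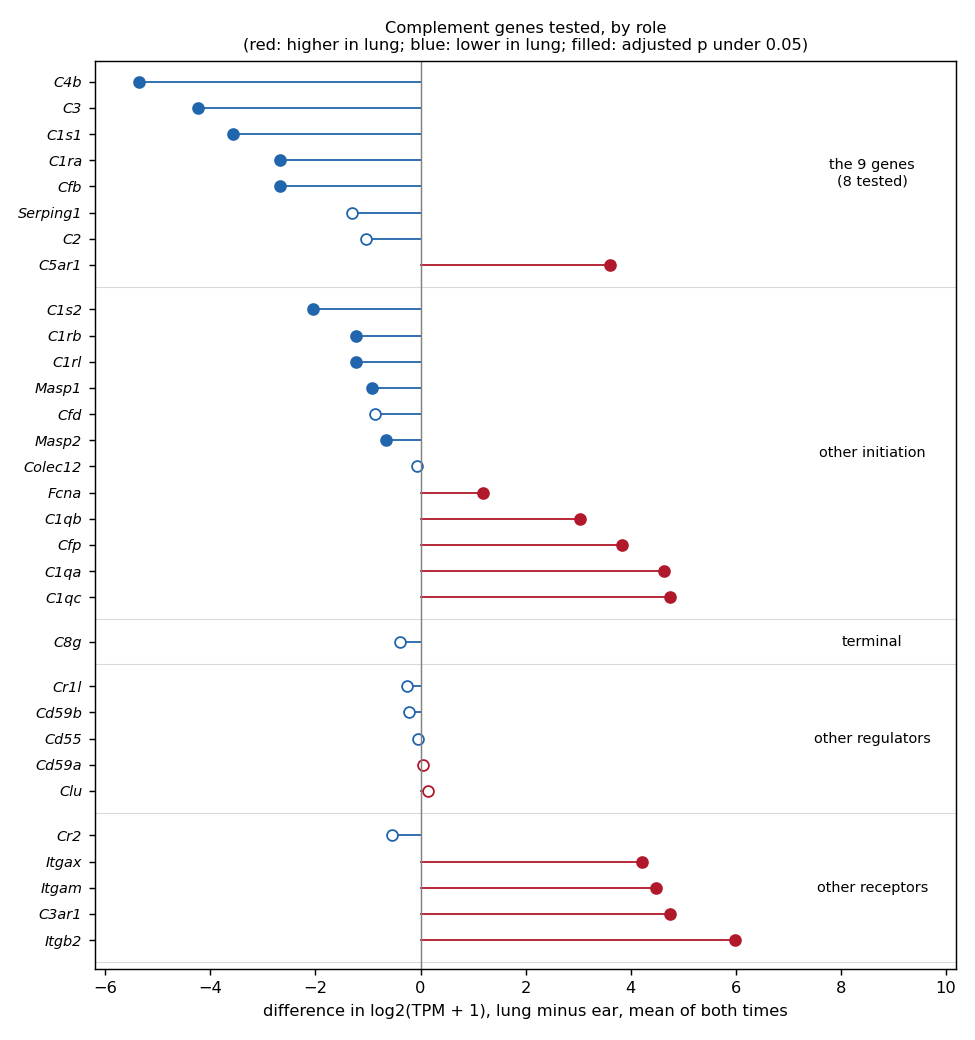
Difference in log2(TPM + 1), lung minus ear, averaged over both times, for the 8 genes tested and other complement genes tested, grouped by role, with 1 regulator not shown. Red marks genes higher in lung, blue genes lower in lung, and filled symbols an adjusted p under 0.05. Secreted proteases and their substrates lie left of 0, C1q chains, properdin and the receptor genes other than Cr2 right of 0, and none of the regulators shown has a filled symbol.

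For likeness, profiles of log2(TPM + 1) over the 10 libraries were compared after each gene's mean was removed, and the measure is the mean absolute difference on that scale. The 9 genes themselves were left out, and the search took genes whose range was at least 0.5 of that of the gene compared, which left 604 to 4580 candidates. Among the 9, C1ra and Cfb were closest (0.20), closer than either was to any of the genes below. C1s1 was most like Serpina3n, an acute-phase serpin gene (0.28), and Tnfsf11, which encodes the cytokine RANKL (0.36). C3 was most like Matn4, a matrilin gene (0.34), and Lbp, which encodes the lipopolysaccharide-binding protein (0.38). C4b was most like Mme, which encodes the peptidase neprilysin (0.42), and Abi3bp (0.45). Mmp2, the gelatinase gene, was among the 2 nearest candidates for both Cfb (0.27) and C1ra (0.27), beside Acat3 for Cfb (0.30) and Tgfbr3, a TGF-beta co-receptor gene, for C1ra (0.22). Serping1 was nearest to Rnf122 (0.19) and Slc10a6 (0.25), and C2 to Art3 (0.25) and Rasl10b (0.25). C5ar1 was nearest to Arhgap30 (0.11) and Vav1, a signalling gene of blood cells (0.13), both near 0 in ear. These profiles include the difference between lung and ear.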

How the data were processed

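RNA of 10 libraries was sequenced, and the authors deposited 1 table of TPM for 61440 transcripts, made with kallisto 0.44.1 on GRCm38 per the submitters' processing notes. The sources used here name no index or trimming step. TPM keep no depth, so no counting interval was computed. Transcripts were matched by Ensembl ID to GENCODE vM21 (60503 matched, and the unmatched held 0.508% to 0.590% of TPM) and summed per gene. Genes reaching 1 TPM in 2 or more libraries were fitted as log2(TPM + 1) with limma 3.58.1 in R 4.3.3, 1 mean per group, variances following the mean level, 6 residual degrees of freedom, two-sided, Benjamini-Hochberg adjustment over 13188 genes and a threshold of 0.05. The fit was tested on simulated data in which libraries were drawn independently, which does not cover the likeness of same-numbered ear libraries.

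The members, lists and tests were chosen with earlier results of these data known. Named were all 9 members, other complement genes that passed in any comparison, and the 2 nearest profiles per member. Words of 31 bases were counted in GENCODE vM21 transcripts. Same-numbered ear libraries deviated together from their group means (r = 0.453, 0.320 and 0.377), so the numbers were taken as pairs in ear on the data alone. Ear 12 h number 2 also correlated with ear 0 h number 3 (r = 0.266). Ddx3y, a Y-linked gene, was at 0.0168 TPM in ear 12 h number 2 and 52.5 TPM in ear 0 h number 2. Taking number 2 as the same animal at both times thus conflicts with its Y-linked transcript, although the block paired its libraries. Lung 0 h number 2 held 53.3 TPM of Ddx3y, and each other library at most 0.758 TPM. The sexes may thus be unbalanced between the times in both tissues, which was not allowed for. Values of 2 listed genes are not reported here.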

Additional observations from a re-analysis of the deposited data

How the results depend on the processing

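Over 20 alternatives, the averaged calls of C4b, C3, C1s1, C1ra, Cfb and C5ar1 were each kept, and 0 of the called directions reversed. None of these alternatives joined same-numbered ear libraries across times, so their likeness was not allowed for in the averaged calls. The count of members called moved by over 1.5 times only where 1 library was left out, from 1 (without lung 0 h number 1) to 4 at 0 h and from 3 (without lung 12 h number 2) to 6 at 12 h. Over all genes, lung against ear at 0 h gave 2368 calls with array weights, 745 with a replicate block joining same-numbered lung and ear libraries of a time, and 547 (without lung 0 h number 1) to 1752 without 1 library. At 12 h these were 1475, 1164 and 1356 (without lung 12 h number 2) to 2468. Averaged over both times, the block gave 2206 and leaving out 1 library 2360 to 3653. With that block C1ra (-3.24, limma adjusted p = 0.0594) and Cfb (-3.16, limma adjusted p = 0.0572) lost their 12 h calls. Whether the numbers pair lung with ear is not settled. Same-numbered deviations correlated at -0.194 and -0.0393 at 0 h and 0.260 and 0.256 at 12 h. Lung libraries of a time deviate by equal and opposite amounts, so these correlations cannot decide it. In both tissues the Y-linked gene Ddx3y exceeded 1 TPM in the 0 h number 2 library alone (lung 53.3, ear 52.5). Same-numbered libraries of a time were thus alike in this gene, which does not show that they came from the same animal.

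For 12 h against 0 h in lung, where 1 gene passed, Ccl12, which was named after its value was seen, 7 passed without the filter, 0 with a filter of 5 TPM, a pseudocount of 0.1, the replicate block, a crossed block or without ear number 1, and 0 to 121 (without lung 12 h number 1) without 1 library. The crossed block was added because same-numbered lung libraries correlated at -0.443. For the interaction, where 0 passed, 2 passed without the filter, 1 each with upper-quartile scaling, quantile normalization and no variance trend, and 0 to 21 (without lung 12 h number 1) without 1 library. The replicate block across times, used only for the comparisons of time and the interaction, changed no member's call. Without 1 lung library a group has 1 library, which is then assumed to vary like the others.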

Other observations

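Genes that respond to interferon or to inflammatory cytokines, signals known to raise complement expression in fibroblasts, were also listed, and the examples below were named after their values were seen. Of 20 interferon-stimulated genes 19 were tested, and averaged over both times 10 were lower in lung and 0 higher (15.9% and 12.3% of all genes tested), with a median of -0.76 on the log2 scale. Ifit1, Ifit3 and Isg15, antiviral effector genes, were at -1.98, -1.59 and -1.55 (limma adjusted p = 6.57e-04, 0.0016 and 0.0255). Ifit1 was under 1 TPM in every lung library and Ifit3 reached it in 1, so both passed the filter only through ear. Irf1, which encodes an interferon-induced factor, was at -0.22 (limma adjusted p = 0.455).

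Of 18 acute-phase and NF-kB genes, 7 were lower and 2 higher in lung (15.9% and 12.3% of all genes tested), with a median of -0.51. The acute-phase genes Hp and Lcn2 were lower, at -5.02 and -4.20, the neutrophil chemokine genes Cxcl5 and Cxcl1 at -4.53 and -3.48, Cebpd, which encodes a C/EBP factor, at -1.83, and Socs3 and Nfkb1 at -1.49 and -0.58. The NF-kB feedback inhibitor genes Nfkbia and Tnfaip3 were higher, at 1.11 and 1.19. The acute-phase gene Saa3 varied widely within groups, at 600.0 and 156 TPM in lung at 12 h and 314 and 2609 TPM in lung at 0 h, against 5278, 188 and 2404 TPM in ear at 12 h and 1115, 122.5 and 176 TPM in ear at 0 h. In lung the library with the most Saa3, number 2 at 0 h, also held the most C1s1, C1ra, Serping1, C4b, C3 and Cfb. That library held the least C2. In ear at 12 h Saa3 and all of these genes, C2 included, were highest in number 1, then number 3, then number 2. At 0 h Saa3 and Cfb kept that order in ear. There C1s1, C1ra, Serping1, C4b, C3 and C2 were higher in number 2 than in number 3. The fibroblast marker Pdgfra was also highest in lung 0 h number 2 (247 TPM). In ear at 12 h it was at 682, 253 and 166.5 TPM in numbers 1, 3 and 2. Not all fibroblast markers did so: Col1a1 was highest in ear 12 h number 2 (756 TPM) and Thy1 in lung 12 h number 1 (53.1 TPM). The part of inflammatory signals or of fibroblast content in these orders was not tested.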
